A study of Mus musculus with 44 samples.

Results

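The Krüppel-like factors described here are 9 transcription factor genes, Klf2, Klf3, Klf4, Klf5, Klf6, Klf9, Klf10, Klf13 and Klf15, out of 46831 genes in the count table. Members were the rows of that table with these symbols. The rule uses no measured value, but the 9 names were chosen with earlier results of these data known. All 9 passed the filter on low counts in every comparison. In SLIM-seq an antibody to N6-methyladenosine (m6A) pulls down modified RNA (IP), and untreated RNA is read as input, so the input gives the mRNA level and IP over input gives an m6A ratio per gene. The IP and input libraries came in 2 replicates each from 8 populations sorted from the epiphysis of WT mice at postnatal day 3, and from SSC, pBCSP and BCSP of mice labelled Mettl3cko, which makes 44 libraries in 22 conditions. SSC (skeletal stem cells), pBCSP and BCSP are the stem and progenitor populations. PCP, THY, BLSP, 6C3 and HEC are called downstream.

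The study names its Mettl3 fl/fl controls WT, on a C57BL/6J background, and its knockout mice carried Mettl3 fl/fl with Col2a1-Cre. By that naming both genotypes carry the floxed allele, and Cre is driven by the promoter of a cartilage collagen gene. The titles read only wild type or Mettl3cko, so they do not give the allele of each WT library. The genotype field reads wild type for all 44 libraries, and the 12 Mettl3cko libraries are known by their titles. Mettl3 itself was not lower in the input libraries labelled Mettl3cko (16.5 to 23.2 CPM, that is counts scaled to library size, 6 libraries) than in WT SSC, pBCSP and BCSP (12.2 to 19.9 CPM, 6 libraries). A count over a whole gene does not show the loss of single exons, so it does not check the label. The study reports loss of Mettl3 in its knockout mice by qRT-PCR and Western blot. It also reports less m6A by dot blot and in its profiles of SSC, pBCSP and BCSP. Library totals ran from 16480027 to 44046651 counts, and replicates of a condition differed by more than counting noise in every pair. The study describes replicates as independent experiments, and all p-values rest on 2 samples per condition. Among the WT inputs of SSC, pBCSP and BCSP, deviations of libraries with the same number correlated at 0.366 (SSC with pBCSP), 0.224 (SSC with BCSP) and 0.368 (pBCSP with BCSP), so the 6 libraries counted in this group may hold fewer independent samples and its standard errors may be too small. The cartilage marker genes sum to 93013 to 110185 CPM in the 6 WT stem and progenitor inputs and to 8505 to 101187 CPM in the 10 downstream inputs. Osteoblast markers sum to 5439 to 11351 CPM against 66488 to 143591 CPM. Ptprc, which encodes the CD45 antigen that the sort removed, had a count of 0 in every WT stem and progenitor input. It was above 0 in every downstream input and in some Mettl3cko inputs. Tek, which encodes the Tie2 antigen that the sort also removed, was at 0 in some but not all inputs of each group. Ptprc and Tek summed to at most 0.992 CPM in WT stem and progenitor inputs, 9.07 CPM downstream and 3.22 CPM in Mettl3cko.

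Krüppel-like factors bind GC-rich and CACC-type boxes in promoters through C2H2 zinc fingers at their C-terminus, and differ in the cofactors that the rest of the protein recruits. Klf2, Klf4, Klf5 and Klf6 mostly activate transcription. Klf3 recruits the corepressor CtBP, while Klf9, Klf10 and Klf13 recruit the corepressor Sin3a. Klf15 lies outside these groups and is known as a glucocorticoid-induced regulator of metabolism. m6A is written on nascent RNA by METTL3 with METTL14, often within a GGAC core, and can mark an mRNA for faster decay. Several Krüppel-like factor genes are transcribed in bursts after stimulation and give short-lived mRNAs.

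Levels between genes were compared per kb of merged exons. Over the 16 WT input libraries, Klf10 had the highest median level (152 CPM per kb), followed by Klf6 (138), Klf2 (96.0), Klf13 (72.9), Klf4 (72.3), Klf9 (44.3), Klf3 (26.7), Klf5 (9.49) and Klf15 (5.67). Klf10, an early response gene to TGF-beta, and Klf6, an early response gene to injury, were thus the most abundant members. As a ratio of highest to lowest library Klf15 spanned the widest range, from 0.176 to 36.7 CPM per kb. As a difference Klf13 did, from 46.1 to 288 CPM per kb. Klf10 spanned 129 to 210.1 CPM per kb.

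**Figure D1:**
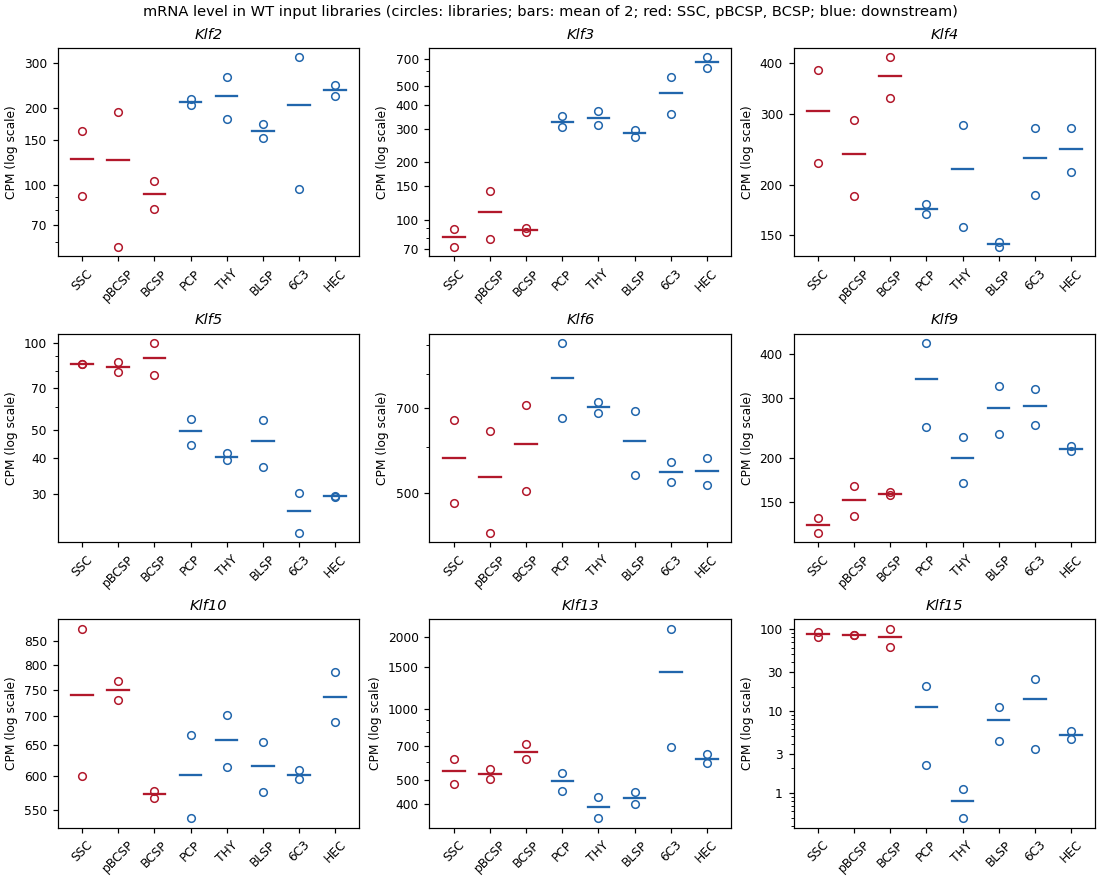
mRNA level of each member (CPM on a log axis) in the 16 WT input libraries, by population, with circles for libraries and bars for the mean of 2. Klf15 and Klf5 are higher in the 6 red stem and progenitor libraries than in any blue downstream library, and Klf3 and Klf9 are lower in all 6.

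To ask whether mRNA levels differed among the 8 WT populations, all genes were fitted with edgeR's quasi-likelihood test. Of the 9 members, 6 differed among populations at an adjusted p under 0.05 (Benjamini-Hochberg), against 40.1% of all genes tested. These were Klf3, Klf4, Klf5, Klf9, Klf13 and Klf15. Klf2, Klf6 and Klf10 did not pass, with adjusted p of 0.206, 0.321 and 0.495 in edgeR. The call of Klf4 (adjusted p = 0.045, edgeR) was lost without either library of BCSP, BLSP, HEC or PCP (0.0605 to 0.129) and with scaling by library size alone (0.141). Klf2 passed without the first 6C3 library (adjusted p = 0.0422, edgeR) or the first pBCSP library (0.0278), and without the low-count filter.

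The stem and progenitor populations were then compared with the downstream populations, each population weighted equally. Klf15, Klf5 and Klf4 were higher in SSC, pBCSP and BCSP, and Klf3, Klf2 and Klf9 were lower. All genes gave 23.1% higher and 28.3% lower at the same threshold, and the members gave 3 of 9 in each direction. The median log2 difference over the members was -0.06, and -0.11 over all genes tested. In bulk samples fewer cells of a type and less RNA per cell cannot be told apart.

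Klf15 had the largest difference of the 9 members. SSC had 94.0 and 82.0 CPM, pBCSP had 86.0 and 86.3 CPM, and BCSP had 60.9 and 102 CPM. Downstream it measured 20.3 and 2.22 CPM in PCP, 1.12 and 0.492 CPM in THY, 4.36 and 11.4 CPM in BLSP, 24.5 and 3.50 CPM in 6C3, and 4.53 and 5.80 CPM in HEC. All 6 stem and progenitor libraries lay above all 10 downstream libraries, and the PCP and 6C3 replicates differed widely from each other. The log2 difference was 3.94 ± 0.42 (SE, n = 6 and 10 libraries), or 15.4-fold (edgeR, adjusted p = 1.07e-06). The THY libraries rest on 24 and 22 counts.

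Klf5, an activator that drives growth in epithelia, was between 77.5 and 99.8 CPM (median 84.3) in the stem and progenitor libraries and between 22.1 and 54.5 CPM (median 38.3) downstream. Its groups did not overlap, and the log2 difference was 1.17 ± 0.12 (SE, edgeR adjusted p = 4.98e-07). The lowest levels were in 6C3 (22.1 and 30.4 CPM) and HEC (29.5 and 29.4 CPM), and BCSP, SSC and pBCSP could not be ordered. Klf4, a reprogramming factor, was between 187 and 413 CPM (median 309) in the stem and progenitor libraries and between 140 and 281 CPM (median 184) downstream. The 2 groups overlapped, and the log2 difference was 0.57 ± 0.16 (SE, edgeR adjusted p = 0.00782). BCSP had the highest mean and BLSP the lowest, with 140 and 144 CPM.

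Klf3, the CtBP-dependent repressor, moved the other way. It measured between 71.8 and 141 CPM (median 87.9) in the stem and progenitor libraries and between 272 and 711 CPM (median 353) downstream. No library of 1 group reached the other, and the log2 difference was -2.13 ± 0.15 (SE, edgeR adjusted p = 1.18e-08), a 4.39-fold lower level. HEC (628 and 711 CPM) stood above 6C3 (358 and 563 CPM), and SSC had the lowest mean. Klf9, which responds to glucocorticoid and thyroid hormone, was between 122 and 166 CPM (median 146) against 170.1 and 431 CPM (median 241). The groups did not overlap, although THY came as low as 170.1 CPM, and the log2 difference was -0.86 ± 0.13 (SE, edgeR adjusted p = 6.06e-05). Klf2, which in endothelium is induced by flow through ERK5 and MEF2, was between 57.3 and 194 CPM (median 97.3) against 97.1 and 316 CPM (median 212). Its groups overlapped, with a log2 difference of -0.90 ± 0.26 (SE, edgeR adjusted p = 0.00969). The pBCSP replicates were 194 and 57.3 CPM and the 6C3 replicates 97.1 and 316 CPM, so neighbouring populations in its order were not resolved. Of all genes tested, 16.5% had groups that did not overlap, as did 4 of the 9 members.

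Klf6, Klf10 and Klf13 did not pass in this comparison. Their log2 differences were -0.18 ± 0.13, 0.06 ± 0.10 and -0.06 ± 0.17 (SE). Klf6 was between 427 and 906 CPM and Klf10 between 538 and 878 CPM over all 16 libraries. Klf13, a Sin3a-recruiting factor, was called among the 8 populations and varied within the downstream group. It was lowest in THY (347 and 424 CPM) and BLSP (399.6 and 448 CPM) and highest in 6C3, where the replicates were 2167 and 693 CPM. The first of these 6C3 libraries stood apart from the other 15, which ran up to 709 CPM. Over the fits that left out 1 library, the adjusted p of Klf13 among populations stayed between 4.21e-06 and 0.0186 (edgeR).

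**Figure D2:**
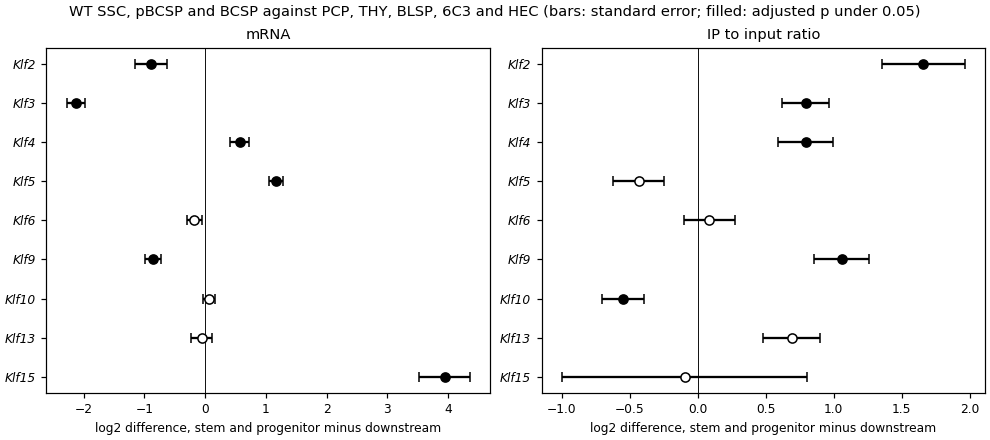
Log2 difference of SSC, pBCSP and BCSP from the 5 downstream populations for mRNA (left) and for the IP to input ratio (right), with standard errors, and filled points for an adjusted p under 0.05. On the left Klf15 lies at 3.94 and Klf3 at -2.13, and on the right Klf2 lies at 1.66 and Klf10 at -0.55.

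The promoters of members that passed in this comparison are shown, 2 that were higher and 3 that were lower. RefSeq promoters on GRCm38.p6 were found for 7 of the 9 members, and not for Klf5 and Klf10. Each stretch runs from 250 bases before the RefSeq start site up to that site or, where it comes earlier, the GENCODE gene start, which leaves 221 bases for Klf2 and 117 for Klf3. Capitals mark matches on either strand, of which neighbouring ones can overlap. The GC box was searched as GGGCGG. The E-box was searched as CACGTG. The CACC box was searched as CACCC, and the CCAAT box by the letters of its name. The MEF2 box and the CArG box, the serum response element, were searched as the usual patterns of these names.
Klf15, chr6:90462326-90462575, plus strand: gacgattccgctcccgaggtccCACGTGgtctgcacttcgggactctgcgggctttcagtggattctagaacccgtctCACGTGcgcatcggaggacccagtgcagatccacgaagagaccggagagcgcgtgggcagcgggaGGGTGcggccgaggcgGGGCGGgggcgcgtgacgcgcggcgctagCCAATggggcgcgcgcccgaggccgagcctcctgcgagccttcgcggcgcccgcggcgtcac
Klf4, chr4:55532476-55532725, minus strand: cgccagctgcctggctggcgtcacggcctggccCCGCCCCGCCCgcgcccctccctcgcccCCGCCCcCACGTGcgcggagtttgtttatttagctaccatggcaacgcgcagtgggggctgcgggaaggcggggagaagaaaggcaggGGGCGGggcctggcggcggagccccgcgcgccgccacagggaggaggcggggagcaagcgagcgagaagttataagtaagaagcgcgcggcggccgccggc
Klf3, chr5:64803271-64803387, plus strand: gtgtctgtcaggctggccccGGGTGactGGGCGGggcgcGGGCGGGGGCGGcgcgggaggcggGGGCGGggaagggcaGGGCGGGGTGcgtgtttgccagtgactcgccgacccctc
Klf9, chr19:23140976-23141225, plus strand: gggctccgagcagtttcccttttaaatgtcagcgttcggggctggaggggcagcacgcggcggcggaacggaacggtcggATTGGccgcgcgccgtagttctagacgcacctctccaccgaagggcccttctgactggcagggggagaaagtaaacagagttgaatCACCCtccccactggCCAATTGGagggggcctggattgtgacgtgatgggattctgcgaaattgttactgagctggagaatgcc
Klf2, chr8:72318812-72319032, plus strand: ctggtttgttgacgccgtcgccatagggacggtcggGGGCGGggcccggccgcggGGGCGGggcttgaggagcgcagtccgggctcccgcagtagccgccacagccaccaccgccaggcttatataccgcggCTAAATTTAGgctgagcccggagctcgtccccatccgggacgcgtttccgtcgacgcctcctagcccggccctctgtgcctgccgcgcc
In the 250 bases before the start site, a GC box was found in 6 copies for Klf3, 4 for Klf4, 2 for Klf2, 1 for Klf15 and 0 for Klf9, while 32.7% of 32851 mouse promoters hold at least 1. Klf15 held 2 E-boxes, and Klf4 and Klf6 held 1 each, while 6.02% of all promoters hold any. The MEF2 box was found in Klf2 alone among the 7 members, 118 bases before its start site, and in 3.20% of all promoters. The CACC box occurred 5 times for Klf3 and once each for Klf2, Klf9, Klf13 and Klf15, with 52.0% of all promoters holding it. CCAAT boxes were found for Klf6, Klf9, Klf13 and Klf15 and in 33.8% of all promoters. No member had a CArG box, which 1.47% of promoters hold. These matches describe letters in a window and were not tested against the levels.

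Other genes of the pathways were read from lists. Of the remaining Krüppel-like and Sp family genes, 17 in the list, 13 were tested, of which 2 were higher and 7 lower in the stem and progenitor populations. Klf16 was higher (log2 difference 0.84 ± 0.18 SE, edgeR adjusted p = 0.00094) and Sp3 was lower (-0.89 ± 0.12 SE, edgeR adjusted p = 1.47e-05). Among 15 cofactors and ubiquitin ligases of the family, 4 were higher and 6 lower. Of the CtBP genes, whose products are partners of Klf3, Ctbp1 was lower (log2 difference -1.74) and Ctbp2 did not pass (log2 difference -0.04, edgeR adjusted p = 0.875). Sin3a, the partner of Klf9, Klf10 and Klf13, was lower by a smaller amount (log2 difference -1.14). Among 9 genes of the ERK5 and MEF2 pathway, 1 was higher and 5 lower. Mapk7, which encodes ERK5, was lower (log2 difference -0.80), as was Klf2, while Mef2c was higher (0.57). Of 8 genes in the glucocorticoid list, the receptor gene and common targets, 5 were higher and 1 lower. Tsc22d3 (log2 difference 0.91) and Zbtb16 (2.66), which are induced by the receptor, were higher with Klf15, and Nr3c1, the receptor gene, was lower (-1.27). Klf9, which responds to the same hormone, was lower. Median log2 differences were -0.44 for the family, -0.16 for the cofactors and ligases, -0.36 for ERK5 and MEF2, and 0.99 for the glucocorticoid list, beside -0.11 over all genes.

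Immediate-early and heat shock genes, which rise with tissue dissociation as well as in the animal, moved in the same comparison. Of 20 in the list, 12 were higher and 3 lower in SSC, pBCSP and BCSP. Their summed level was 24236 to 36745 CPM in the 6 stem and progenitor libraries and 10267 to 18316 CPM in the 10 downstream libraries, and all 20 were above 0 in every input library. Fos (log2 difference 2.55) and Nr4a1 (2.91) were among those that were higher, and Jund (-1.45) and Egr3 (-3.27) among those that were lower. Klf4, Klf6 and Klf10 are themselves early response genes, of which only Klf4 passed the test here. Endothelial markers, where Klf2 is best known, summed to 9.53 to 53.7 CPM against 19.96 to 205 CPM. Cdh5, Emcn and Tie1 had a count of 0 in some libraries of each group. Erythroid markers summed to 0.714 to 5.71 CPM against 17.7 to 146 CPM. Klf3 is active in erythroid cells as well. All 7 erythroid markers were above 0 in every downstream input, and Slc4a1 was at 0 in every stem and progenitor input. Mural markers, all 5 above 0 in every input of both groups, summed to 479 to 687 CPM against 720 to 2846 CPM, and like the erythroid sums did not overlap. The part of these lists in the differences of the Krüppel-like factors was not tested.

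Genes whose log2 CPM followed each member most closely over the 16 WT inputs were found among 8578 genes with a mean of at least 10 CPM. For Klf3 these were Igfbp7, Traf1 and Kazn (Pearson r 0.978, 0.975 and 0.974), for Klf5 Serpina3n, Jun and A2m (0.967, 0.967 and 0.966), and for Klf15 Apoe, Ier2 and Dok1 (0.953, 0.952 and 0.952). Klf9 was followed by Mxd4, Foxn3 and Rnf166 (0.958, 0.949 and 0.937) and Klf13 by Cyp2u1, Bcl2l1 and Micu3 (0.934, 0.933 and 0.929). The others had their closest gene at 0.888 (Adipor2 for Klf2), 0.876 (Pcsk6 for Klf4), 0.867 (Arl6ip4 for Klf6) and 0.870 (Poc5 for Klf10). Among the members, Klf3 and Klf5 ran most opposite (r = -0.91) and Klf2 and Klf3 most alike (0.77). The libraries share 8 populations, so these values describe the populations as much as the genes.

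**Figure D3:**
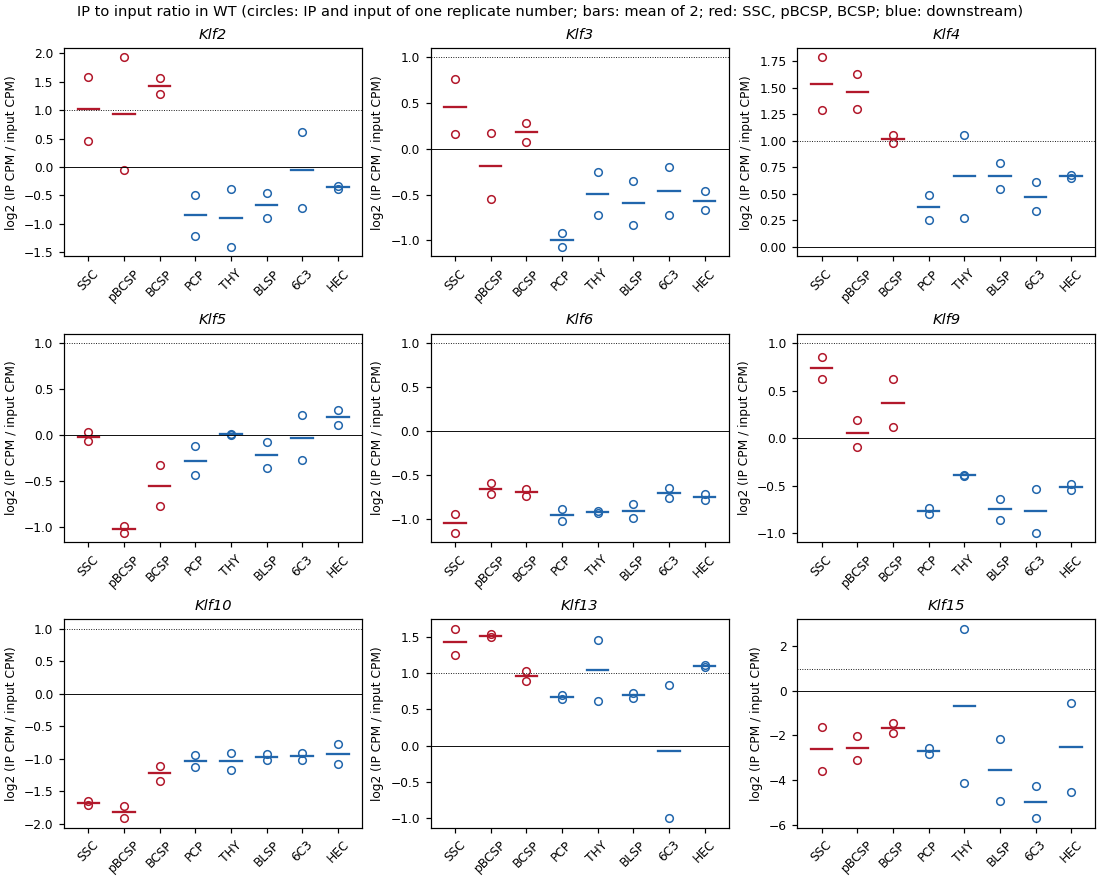
Log2 ratio of IP to input CPM for each member in 8 WT populations, with circles for replicate pairs, bars for the mean of 2, a solid line at 0 and a dotted line at 1. Klf10 and Klf6 lie below 0 in all 16 pairs, and Klf4 and Klf13 lie above 0 in all but the first 6C3 pair of Klf13.

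The m6A ratio of each member was next compared within each WT population. An mRNA was called m6A-tagged at a log2 IP to input ratio above 1 with an unadjusted p under 0.05, the rule of the study. Of 72 pairs of member and population, 8 were tagged. In SSC, 10.4% of all genes were tagged, and the members were Klf4 (log2 ratio 1.51 ± 0.32 SE), Klf13 (1.45 ± 0.21) and Klf2 (1.00 ± 0.32). In pBCSP (12% of all genes) they were Klf13 (1.52 ± 0.13) and Klf4 (1.44 ± 0.26), and in BCSP (6.67%) Klf2 (1.37 ± 0.23). Klf13 was tagged in THY (1.16 ± 0.21, 12.4% of all genes) and HEC (1.19 ± 0.13, 13.5%). None was tagged in PCP, BLSP or 6C3, where 10.6%, 12.4% and 14.5% of all genes were. With an unadjusted p under 0.05 in edgeR but a log2 ratio under 1, Klf13 stood above 0 in BCSP (0.91), PCP (0.74) and BLSP (0.76), Klf4 in BCSP (0.96), THY (0.71), BLSP (0.75) and HEC (0.75), and Klf9 in SSC (0.77). At that p alone, in either direction, 3939 of 16040 genes passed in BCSP, the lowest share, and 7224 of 16541 in HEC, the highest. The SSC call of Klf2 lay at the threshold and was lost without the second IP (0.86) or the second input (0.66). That of Klf13 in THY was lost without the first IP (0.88).

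Klf10 and Klf6, the most abundant members, were depleted in the IP. The fitted log2 ratio of Klf10 ran from -0.83 in HEC to -1.82 in pBCSP. That of Klf6 ran from -0.65 in 6C3 to -0.9995 in SSC. Each had an unadjusted p under 0.05 (edgeR) in all 8 populations, the threshold whose shares of all genes are given above. Klf15 was also low in the IP, at -1.61 and -3.61 in the SSC pairs, -3.10 and -2.01 in pBCSP, and -1.43 and -1.87 in BCSP. Its downstream IP libraries held between 0 and 81 counts, and the ratio there spread from -5.71 to 2.79. Klf5 was below input in pBCSP, with a log2 ratio of -1.02 ± 0.19 (SE, edgeR adjusted p = 0.0217), and passed in no other population. With an unadjusted p under 0.05 (edgeR), Klf3 also stood below 0 in PCP (-0.93), BLSP (-0.51) and HEC (-0.47). Klf2 did so in PCP (-0.76), THY (-0.80) and BLSP (-0.57), and Klf9 in BLSP (-0.65), 6C3 (-0.72) and HEC (-0.42). RNA was not fragmented before the IP, so a ratio belongs to the whole gene and names no site.

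To set the ratios beside the sequence, GGACT, a frequent form of the m6A core, was counted in the longest protein-coding GENCODE transcript of each member, and its letters are shown in capitals with 10 bases on each side. The tagged members are shown, Klf13 from 4 populations and Klf4 and Klf2 from 2 each, beside the depleted Klf10 and Klf6.
Klf4, coding sequence, exon 3, chr4:55530143-55530167, minus strand: ctccccaccaGGACTacccctacac
Klf4, coding sequence, exon 3, chr4:55530100-55530124, minus strand: tgaacagcagGGACTgtcaccctgg
Klf13, 3′ UTR, exon 2, chr7:63890556-63890580, minus strand: acatcccacaGGACTgatggtggca
Klf13, 3′ UTR, exon 2, chr7:63890473-63890497, minus strand: ggagagacaaGGACTgctgctctgg
Klf2, coding sequence, exon 2, chr8:72319475-72319499, plus strand: acaacgtgttGGACTtcatcctctc
Klf6, 3′ UTR, exon 4, chr13:5867485-5867509, plus strand: gggtgaccccGGACTcaccactggt
Klf10, 3′ UTR, exon 4, chr15:38295591-38295615, minus strand: tacacattggGGACTttgtttttgc
Klf4 held 5 copies (1.65 per kb), Klf13 held 7, all in the 3′ UTR (1.09 per kb), and Klf10 held 1 (0.329 per kb). Klf6 held 8, the highest density of the 9 (1.89 per kb, at or above which lie 13.8% of 21405 genes), and was depleted in every population. Klf2 held 1 copy, in the coding sequence (0.541 per kb), and was tagged in SSC and BCSP. Klf9 held 5 copies, Klf5 held 3, and Klf3 and Klf15 held 1 each, beside a median of 1.02 per kb over all genes. The count of copies did not order the members by their ratio.

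Whether the ratio differed among the 8 WT populations was tested in 1 fit over the 32 WT libraries. No member passed at an adjusted p under 0.05, as 0.485% of all genes did, and 6 of the 9 had an unadjusted p under 0.05 (edgeR), against 7.97% of all genes. The study divided cells of 1 batch between the assays, and IP and input of 1 number were taken as pairs. With that pairing as a replicate block 6 members passed, against 3.64% of all genes. These were Klf2 (adjusted p = 5.81e-09, edgeR), Klf3, Klf4, Klf9, Klf13 and Klf15. DESeq2 without the block also called 6, with Klf5 and Klf10 in place of Klf4 and Klf15, against 5.72% of the genes it gave an adjusted p. The contrast of SSC, pBCSP and BCSP with the 5 downstream populations in that fit called 5 members. Klf2, Klf3, Klf4 and Klf9 had a higher ratio in the stem and progenitor populations, against 3.06% of all genes, and Klf10 had a lower ratio, against 1.77%. The share of mitochondrial counts moved with the same contrast, at 1.56% to 2.92% in the 6 IP libraries of these populations and 4.53% to 9.10% in the 10 downstream IP libraries, while the inputs overlapped (0.427% to 0.717% and 0.287% to 1.41%). Its part in the ratios was not tested. The median log2 difference over the 9 members was 0.69, and -0.08 over all genes tested.

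Klf2 changed sign between the groups. The SSC pairs had log2 ratios of 0.46 and 1.59, those of pBCSP -0.05 and 1.93, and those of BCSP 1.28 and 1.57. Downstream it lay between -1.41 and 0.62 with a median of -0.47 over 10 pairs, and only 1 pair, in 6C3, was above 0. The difference was 1.66 ± 0.31 (SE, edgeR adjusted p = 0.00144), the largest of the 9. Klf9 was between -0.09 and 0.85 (median 0.41) against -0.99 and -0.38 (median -0.59). It was the only member whose groups did not overlap, as did 1.58% of all genes, with a difference of 1.06 ± 0.20 (SE, edgeR adjusted p = 0.00177).

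Klf3 was between -0.54 and 0.77 (median 0.17) against -1.07 and -0.19 (median -0.70), with a difference of 0.80 ± 0.17 (SE, edgeR adjusted p = 0.00596). Klf4 was between 0.98 and 1.78 (median 1.29) against 0.25 and 1.06 (median 0.58), with a difference of 0.79 ± 0.20 (SE, edgeR adjusted p = 0.0185). Both overlapped slightly between groups. Klf10 was between -1.91 and -1.11 (median -1.68) against -1.17 and -0.78 (median -0.98), a difference of -0.55 ± 0.15 (SE, edgeR adjusted p = 0.0338). Klf13 differed by 0.69 ± 0.21 (SE) and did not pass (edgeR adjusted p = 0.0551, and 0.00112 with the replicate block), Klf5 differed by -0.43 ± 0.19 (adjusted p = 0.225, edgeR), and Klf6 by 0.08 ± 0.19. Klf15 could not be resolved, at -0.10 ± 0.90. The calls of Klf2, Klf3 and Klf9 held without any 1 of the 32 libraries. That of Klf10 was lost in 9 of the 32 such fits (adjusted p up to 0.116 in edgeR, without the first SSC input) and that of Klf4 in 5 (up to 0.081, without the second SSC IP). Klf2, Klf3 and Klf9 thus had lower mRNA and a higher ratio in the stem and progenitor populations, and Klf4 had both higher. The input level enters both measures, so they are not independent. Among the listed genes, the ratio was higher in the stem and progenitor populations for 3 of 15 cofactors and ligases (Ctbp1, Ctbp2 and Hdac2) and lower for 1 (Fhl3). It was higher for 3 of 9 ERK5 and MEF2 genes (Map3k2, Mef2a and Mef2d), 2 of 8 genes of the glucocorticoid list (Fkbp5 and Nr3c1) and 3 of 20 immediate-early genes (Egr3, Jund and Socs3). None of 14 other family genes tested passed in either direction.

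**Figure D4:**
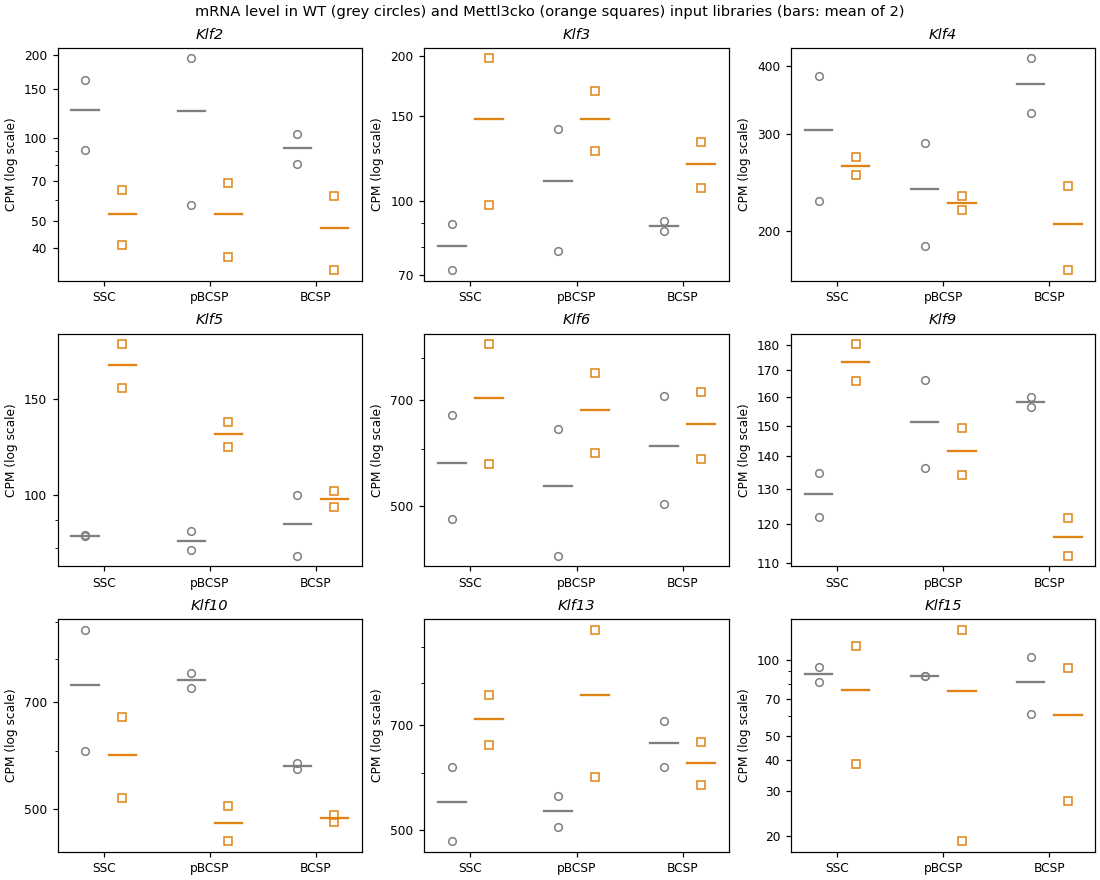
mRNA level of each member (CPM on a log axis) in the input libraries of WT (grey circles) and of the samples labelled Mettl3cko (orange squares), with bars for the mean of 2. Klf5 is higher in both Mettl3cko libraries of SSC and pBCSP, and Klf2 is lower in both of SSC and BCSP.

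The libraries labelled Mettl3cko were compared with WT for mRNA within SSC, pBCSP and BCSP, by the rule of the study for a changed gene, a log2 change beyond 0.5 with an unadjusted p under 0.05. Of 27 pairs of member and population, 7 passed, 3 higher and 4 lower. In SSC (14.0% of all genes) Klf5 and Klf3 were higher and Klf2 lower, in pBCSP (8.36%) Klf5 was higher and Klf10 lower, and in BCSP (12.9%) Klf2 and Klf4 were lower. No gene of the table passed at an adjusted p under 0.05 (edgeR) in any of the 3 populations.

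Klf5 measured 84.2 and 84.4 CPM in WT SSC and 157 and 189 CPM in the SSC libraries labelled Mettl3cko, a log2 change of 1.03 ± 0.19 (SE, edgeR adjusted p = 0.153). In pBCSP it went from 79.2 and 85.8 CPM to 136 and 123 CPM (0.67 ± 0.21, SE, edgeR adjusted p = 0.569). Without either WT library of pBCSP that call was lost (log2 change 0.60 and 0.74). In BCSP the libraries overlapped, with 77.5 and 99.8 CPM in WT against 94.8 and 101 CPM (0.14 ± 0.23, SE). Over the 3 populations the 6 libraries labelled Mettl3cko ran from 94.8 to 189 CPM and the 6 WT libraries from 77.5 to 99.8 CPM. The groups met only in BCSP. No member had mRNA levels that did not overlap between the 6 and 6 libraries, and 5.02% of all genes did.

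Klf2 was called lower in the libraries labelled Mettl3cko of SSC and BCSP and not of pBCSP. In SSC it went from 163 and 90.8 CPM to 65.1 and 41.2 CPM, a log2 change of -1.25 ± 0.33 (SE, edgeR adjusted p = 0.193). In BCSP it went from 104 and 80.4 CPM to 33.4 and 61.6 CPM (-0.96 ± 0.32, SE, edgeR adjusted p = 0.291), and in pBCSP from 194 and 57.3 CPM to 37.3 and 68.7 CPM (-1.22 ± 0.60, SE, edgeR adjusted p = 0.64). The WT pBCSP replicates differed more from each other than the genotypes did. Under other settings Klf2 passed in pBCSP. Its log2 change was -1.21 with the DESeq2 test, and -1.22 in the joint fit of 12 inputs and without the low-count filter. The call in SSC was lost without the first WT library (log2 change -0.77), and that in BCSP without the first Mettl3cko library (-0.59) or the first WT library (-0.78).

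Klf3 was higher in SSC, with 89.3 and 71.8 CPM in WT and 198 and 98.1 CPM in Mettl3cko (log2 change 0.87 ± 0.32 SE, edgeR adjusted p = 0.279). Without the first Mettl3cko library the change was 0.32, and without the first or the second WT library 1.05 and 0.74, none of which passed. Klf3 had values of 0.46 ± 0.33 and 0.42 ± 0.22 (SE) in pBCSP and BCSP. Klf4 was lower in BCSP, with 328 and 413 CPM in WT and 169.6 and 241 CPM in Mettl3cko (-0.86 ± 0.25 SE, edgeR adjusted p = 0.27), and within the WT range in SSC and pBCSP. The BCSP call was lost without the first Mettl3cko library (-0.63) or the second WT library (-0.69). Klf10 was lower in pBCSP, with 768 and 731 CPM in WT and 453 and 505 CPM in Mettl3cko (-0.63 ± 0.20 SE, edgeR adjusted p = 0.569), and the call was lost without either WT library (-0.60 and -0.65). Klf10 in BCSP measured 568 and 578 CPM against 481 and 492 CPM, with a log2 change of -0.24 ± 0.20 (SE) that did not pass. With 2 against 2 libraries, 47.7%, 41.7% and 45.6% of all genes did not overlap in SSC, pBCSP and BCSP, and 5, 3 and 5 of the 9 members did not. Beside the 7 called, these were Klf9 and Klf13 in SSC, Klf13 in pBCSP, and Klf3, Klf9 and Klf10 in BCSP. Klf6, Klf9, Klf13 and Klf15 passed in no population in these fits.

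Klf15 varied between replicates within Mettl3cko. The libraries numbered 1 gave 38.4, 19.0 and 27.4 CPM in SSC, pBCSP and BCSP, and those numbered 2 gave 114, 132 and 93.1 CPM. The 6 WT libraries gave 60.9 to 102 CPM. In the IP the libraries numbered 1 held 7, 12 and 4 counts of Klf15 and those numbered 2 held 1096, 615 and 884. The log2 changes of its mRNA were -0.21 ± 0.44, -0.18 ± 0.78 and -0.45 ± 0.52 (SE), and no change could be resolved at that spread. Without the second Mettl3cko library they were -1.21, -2.15 and -1.59, and without the first pBCSP library the value was 0.63, so the direction rested on which library was kept.

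Whether the change with genotype differed between the 3 populations was tested over the 12 inputs. No gene passed at an adjusted p under 0.05 (edgeR, 18655 genes tested), so the share of all genes called was 0%, and 839 genes had an unadjusted p under 0.05. Among the members, Klf9 and Klf5 were below that level (edgeR adjusted p = 0.941 for each). Klf9 measured 180.4 and 166 CPM in Mettl3cko SSC against 135 and 122 CPM in WT (log2 change 0.43 ± 0.18 SE), and 112 and 122 CPM in Mettl3cko BCSP against 156 and 160 CPM in WT (-0.45 ± 0.20 SE). The immediate-early list summed to 21259 to 27879 CPM in the Mettl3cko libraries and 24236 to 36745 CPM in WT. Of its 20 genes, 5, 2 and 7 fell in SSC, pBCSP and BCSP by the rule above, and 0, 0 and 1 rose. Erythroid markers summed to 11.8 to 51.6 CPM in the 6 Mettl3cko inputs and 0.714 to 5.71 CPM in the 6 WT inputs, with no overlap. Of the 7, 5 were above 0 in every Mettl3cko input and 3 in every WT input, and Slc4a1 was at 0 in every WT input. The highest sum, 51.6 CPM, was in the first Mettl3cko library of SSC, the one without which the Klf3 change in SSC was 0.32. In Mettl3cko BCSP the first library also had more erythroid signal (21.6 against 11.8 CPM) and more Klf3 (133 against 106 CPM). In Mettl3cko pBCSP the first library had less erythroid signal (16.8 against 24.6 CPM) and more Klf3 (169 against 127 CPM). Endothelial markers summed to 17.7 to 73.0 CPM against 9.53 to 53.7 CPM in WT, and mural markers to 582 to 759 CPM against 479 to 687 CPM, both with overlap. The part of these lists in the changes of the Krüppel-like factors was not tested.

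Of the other family genes, 11 were tested in SSC and 12 in each of pBCSP and BCSP. Klf16 was higher in SSC (log2 change 0.98) and pBCSP (1.66), and Klf12 was lower in SSC (-1.20). Klf1, an erythroid factor, was lower in BCSP, with 27 and 35 counts in WT and 0 and 2 in Mettl3cko. Its counts were 17 and 6 against 0 and 0 in SSC, and 21 and 43 against 0 and 38 in pBCSP.

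**Figure D5:**
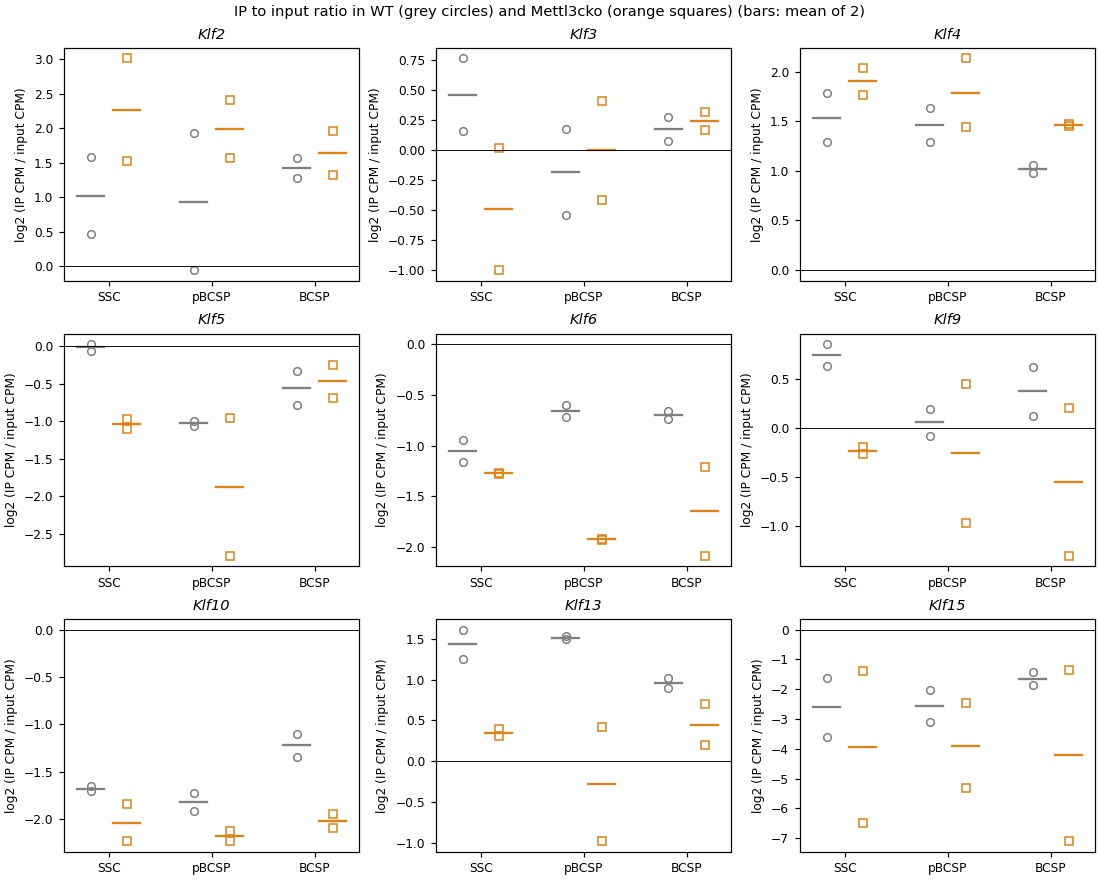
Log2 ratio of IP to input CPM of each member in WT (grey circles) and in the samples labelled Mettl3cko (orange squares), with bars for the mean of 2. Klf13 and Klf6 are lower in all 6 Mettl3cko pairs than in any of the 6 WT pairs.

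The last comparison asked how the m6A ratio differed with genotype in the same populations. At an unadjusted p under 0.05, 6 of 27 pairs of member and population differed, and all 6 had the lower ratio in Mettl3cko. In SSC, pBCSP and BCSP in turn, 11.3%, 9.87% and 7.82% of all genes had a lower ratio, out of 14.5%, 11.9% and 10.3% that differed in either direction. No gene passed at an adjusted p under 0.05 (edgeR). In SSC the members were Klf13, Klf5 and Klf9, in pBCSP Klf13 and Klf6, and in BCSP Klf10.

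Klf13 had log2 ratios of 1.25 and 1.61 in WT SSC and 0.39 and 0.31 in Mettl3cko SSC, a difference of -1.04 ± 0.29 (SE, edgeR adjusted p = 0.203). In pBCSP the ratios were 1.496 and 1.53 against -0.98 and 0.42 (-1.86 ± 0.44, SE, edgeR adjusted p = 0.205), and in BCSP 0.90 and 1.02 against 0.70 and 0.20 (-0.48 ± 0.27, SE). Over the 3 populations its 6 Mettl3cko pairs lay between -0.98 and 0.70 and its 6 WT pairs between 0.90 and 1.61. Klf6 had ratios of -0.72 and -0.60 in WT pBCSP and -1.92 in both Mettl3cko pairs (-1.33 ± 0.42, SE, edgeR adjusted p = 0.273). Over the 3 populations Klf6 lay between -2.08 and -1.21 in Mettl3cko and between -1.16 and -0.60 in WT. Its pBCSP call was lost without the first Mettl3cko input, the first WT IP or the second WT input (-1.10, -1.07 and -1.07), while both calls of Klf13 held without any 1 library. Klf13 and Klf6 were thus the members whose 6 and 6 pairs did not overlap, while 3.25% of all genes did so, 1.74% with the lower ratio in Mettl3cko.

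Klf9 went from 0.62 and 0.85 in WT SSC to -0.20 and -0.27 in Mettl3cko SSC (-0.93 ± 0.33, SE, edgeR adjusted p = 0.27), and Klf5 from 0.03 and -0.06 to -1.10 and -0.97 (-0.97 ± 0.40, SE, edgeR adjusted p = 0.334). With the replicate block neither passed (-0.93 for Klf9 and -0.98 for Klf5). Each was also lost without either WT input, either Mettl3cko input or the second WT IP of SSC, over which Klf9 lay between -1.08 and -0.88 and Klf5 between -1.10 and -0.82. Klf5 was lost without the first WT IP as well (-0.93). In the same population Klf5 mRNA was higher in Mettl3cko, and the input enters both measures. Klf10 went from -1.34 and -1.11 to -1.94 and -2.09 in BCSP (-0.77 ± 0.26, SE, edgeR adjusted p = 0.407), a call lost without the second Mettl3cko input or the second WT IP (-0.75 and -0.65). With the block Klf6 passed in BCSP as well (log2 difference -0.92). Klf2 and Klf4, which were tagged in WT, did not show a lower ratio in Mettl3cko. IP and input were scaled by TMM, so a ratio is relative to most genes. A loss of m6A shared by most genes would largely be scaled out, so this does not show that these mRNAs kept their m6A. Klf2 had 1.32 to 3.01 over 6 Mettl3cko pairs against -0.05 to 1.93 over 6 WT pairs, with differences of 1.36 ± 0.59, 1.16 ± 0.76 and 0.20 ± 0.44 (SE) in SSC, pBCSP and BCSP that did not pass. Klf4 had 1.44 to 2.13 against 0.98 to 1.78, with differences of 0.47 ± 0.43, 0.33 ± 0.45 and 0.48 ± 0.38 (SE). The 3 genotype comparisons of the ratio use the same input libraries as the mRNA comparisons.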

How the data were processed

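IP and input RNA of the 22 conditions was sequenced in 44 libraries. The authors trimmed reads with fastp 0.20.1, aligned them to GRCm38 with HISAT2 2.2.1 and counted them per gene with featureCounts 2.0.1, and deposited raw counts in whole numbers. The deposited tables of their own comparisons (log2 fold changes and p-values) were not used. Of 46959 entries, 128 named 1-Mar or 2-Mar, which hold at most 0.390% of a library's counts, were left out.

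Groups came from the titles. Counts were scaled by TMM, filtered with filterByExpr and tested with edgeR 4.0.16 (quasi-likelihood, R 4.3.3), with Benjamini-Hochberg adjustment over all genes tested. CPM values are TMM-scaled, and a ratio per replicate is log2 of IP over input CPM. With this scaling a difference in m6A shared by most genes largely drops out of the ratios. The contrast of 3 with 5 populations and the tests among populations used all 16 WT inputs or all 32 WT libraries, and each Mettl3cko comparison used its own population. Calls followed the study's rules within populations (a log2 ratio above 1, or a log2 change beyond 0.5, with an unadjusted p under 0.05) and an adjusted p under 0.05 elsewhere. Library totals were 19795666 to 44046651 counts for WT inputs, 16480027 to 35856651 for WT IP, 30050178 to 35325482 for Mettl3cko inputs and 22056571 to 33126857 for Mettl3cko IP. Each condition had 2 replicates, which limits the precision.

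The named genes are the 9 members and listed genes past the threshold, and for likeness the 3 genes with the highest Pearson r of log2 CPM over the WT inputs. The members and lists were chosen with earlier results of these data known. The study states that cells of 1 sort were divided between the assays, so IP and input of 1 number were taken as pairs. Their deviations from the group means correlated at 0.0387 to 0.522 in WT (6 of 8 populations over 0.1) and 0.0870 to 0.118 in Mettl3cko. The fits were tested on simulated counts with 200 changed genes. At an adjusted p under 0.05, 48% of 2-fold changes were recovered for mRNA between the groups of populations. For the ratio between these groups 12% were recovered, and 6% for mRNA of Mettl3cko against WT in SSC. At an unadjusted p under 0.05, the latter was 51%, and the ratio of Mettl3cko against WT in SSC gave 14%. A member that did not pass can therefore still differ. The alternatives were DESeq2 1.42.0, other scalings, no low-count filter, a replicate block, joint fits, adjusted p-values and leaving out each library. Promoters came from RefSeq (GRCm38.p6) and transcripts from GENCODE vM21.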

Additional observations from a re-analysis of the deposited data

Results flagged for a closer look

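The effect compared here is the IP to input log2 ratio, tested for a difference between SSC, pBCSP and BCSP on 1 side and PCP, THY, BLSP, 6C3 and HEC on the other, in edgeR over 32 WT libraries. The ratio differed between these groups for 5 of the 9 members. It was higher in the stem and progenitor populations for Klf2 (log2 difference 1.66), Klf9 (1.06), Klf3 (0.80) and Klf4 (0.79) and lower for Klf10 (-0.55).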

How the results depend on the processing

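No member that passed changed direction under any alternative tried. All 6 members called for mRNA between stem and progenitor and downstream populations passed under every alternative. The number of members whose ratio differed among the 8 WT populations went from 0 to 6 with the DESeq2 test, 4 without the low-count filter and 6 with the replicate block, and the cause was not tested. At an adjusted p, the 7 mRNA calls and the 6 ratio calls of Mettl3cko against WT both became 0. With 1 library left out, the counts ran from 6 to 6 for mRNA between the 2 groups of populations and from 5 to 7 among the 8. They ran from 7 to 9 for tagged pairs, from 0 to 2 for the ratio among populations and from 3 to 6 for the ratio between the groups. For Mettl3cko they ran from 5 to 10 for mRNA, from 4 to 9 for the ratio and from 0 to 0 for the difference between populations. The lowest count of the ratio between the groups, 3, came without the first input of BCSP, SSC or pBCSP. A left-out library leaves a condition with 1 sample, which is assumed to vary like the others.

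With scaling by DESeq2 size factors, Klf4 did not pass for the ratio between the groups (log2 difference 0.63, edgeR adjusted p = 0.0672), nor did Klf5 for the ratio of Mettl3cko against WT in SSC (log2 difference -0.96). That call of Klf5 and the one of Klf9 in SSC were also lost in the joint fit of 24 libraries (-1.04 and -0.996) and without the low-count filter (-1.07 and -1.03). Without that filter the tags of Klf2 in SSC (0.95) and Klf13 in THY (0.99) were lost. That of Klf2 was also lost in the joint fit of 32 libraries (0.99) and at an adjusted p. In that joint fit Klf4 was tagged in BCSP as well (log2 ratio 1.02, edgeR adjusted p = 0.0134), from 0.96 in BCSP alone. For the ratio between the groups, Klf5 passed with the DESeq2 test (-0.60) and Klf13 without the filter (0.55). Klf2 in BCSP did not pass for mRNA in the joint fit of 12 inputs (log2 change -0.97). In pBCSP Klf2 did pass there (-1.22), with the DESeq2 test (-1.21) and without the filter (-1.22, edgeR adjusted p = 0.0131). Klf13 in pBCSP passed in that joint fit (0.56) and without the filter (0.55). The replicate block gave 5 ratio calls in Mettl3cko against WT in place of 6. Beside the members named with it in the report, the block added Klf15 mRNA in BCSP (log2 change -0.65) and changed no other call. Between genotypes the replicates share only a number: the deviations of WT and Mettl3cko inputs correlated at -0.0740 to 0.0419, and those between WT populations at -0.460 to 0.368, where all 3 pairs among SSC, pBCSP and BCSP were over 0.1. Depth limits Klf15 downstream, with 0 to 81 counts in the IP.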
